A study of Homo sapiens with 6 samples.

Results

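The HOXD cluster is the run of 9 HOX transcription factor genes on human chromosome 2, from HOXD13 at its 5′ end to HOXD1 at its 3′ end. All 9 were found by their Ensembl identifiers among the 57820 human genes of the table. RNA was measured in 3 samples of DKO1 and 3 samples of the parental line (WT). DKO1 is a derivative of the human colorectal cancer cell line HCT116, described by the submitters as having DNMT1 and DNMT3B knocked out, and WT is HCT116 without these knockouts. Cells of both genotypes were kept in McCoy's 5A with foetal bovine serum, and stranded messenger RNA libraries were made from RNA extracted with TRIzol. DKO1 is 1 derived line, so loss of the DNA methyltransferases and any other change that this line acquired cannot be told apart. No label says that replicates were grown separately, and the spread behind each p-value may therefore be technical. Values are TPM, a transcript abundance that the authors corrected for gene length and set to a common total, and the depth behind them is unknown.

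HOX genes encode homeodomain proteins that give cells their position along the body axis, and the genes of a cluster lie in the order in which they are used along that axis. The genes at the 5′ end of HOXD, HOXD10 to HOXD13, act in the distal limb, the genital tubercle and the hindgut, and those at the 3′ end act further forward. The cluster is a known target of Polycomb repression, and in mouse and human it lies between a pair of regulatory landscapes, one on the side of LNPK and EVX2 and the other on the side of MTX2. DNMT1 copies DNA methylation at replication and DNMT3B sets it on unmethylated sites. HOX promoters are often rich in CpG, the dinucleotide that these enzymes methylate.

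The sequences just before the transcription starts of 5 members are shown because these genes differ in level and in CpG content. They are HOXD13, HOXD10 and HOXD8, which reached 1 TPM in DKO1, HOXD12, which stayed close to 0 between HOXD13 and HOXD10, and HOXD4, whose values overlapped between the genotypes. Each line gives the 250 bases before the RefSeq start on build GRCh38.p14, 5′ to 3′, with CpG dinucleotides in capitals. This build differs from the hg19 and GRCh37 named in the submitters' processing notes.
HOXD13, chr2:176092471-176092720 (+): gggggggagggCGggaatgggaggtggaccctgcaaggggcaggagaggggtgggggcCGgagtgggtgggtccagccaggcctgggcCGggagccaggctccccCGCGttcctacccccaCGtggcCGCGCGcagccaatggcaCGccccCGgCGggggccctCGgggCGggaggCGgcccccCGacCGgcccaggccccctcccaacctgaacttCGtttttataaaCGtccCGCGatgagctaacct
HOXD12, chr2:176099545-176099794 (+): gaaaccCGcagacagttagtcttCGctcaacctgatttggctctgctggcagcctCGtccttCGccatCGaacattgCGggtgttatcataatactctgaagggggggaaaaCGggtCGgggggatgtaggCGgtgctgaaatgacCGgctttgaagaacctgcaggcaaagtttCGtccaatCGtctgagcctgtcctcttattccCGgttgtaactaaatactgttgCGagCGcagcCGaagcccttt
HOXD10, chr2:176116528-176116777 (+): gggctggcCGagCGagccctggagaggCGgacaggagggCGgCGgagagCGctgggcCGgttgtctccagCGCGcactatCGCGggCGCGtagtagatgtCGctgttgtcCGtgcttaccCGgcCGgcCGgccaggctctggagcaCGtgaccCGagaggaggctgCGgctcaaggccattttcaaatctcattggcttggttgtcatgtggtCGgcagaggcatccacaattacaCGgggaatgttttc
HOXD8, chr2:176129455-176129704 (+): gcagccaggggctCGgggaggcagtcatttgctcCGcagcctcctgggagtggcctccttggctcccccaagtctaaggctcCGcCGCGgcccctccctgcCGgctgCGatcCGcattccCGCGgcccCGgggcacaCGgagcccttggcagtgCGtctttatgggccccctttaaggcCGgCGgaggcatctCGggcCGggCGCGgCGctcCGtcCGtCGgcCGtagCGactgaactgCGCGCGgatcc
HOXD4, chr2:176151300-176151549 (+): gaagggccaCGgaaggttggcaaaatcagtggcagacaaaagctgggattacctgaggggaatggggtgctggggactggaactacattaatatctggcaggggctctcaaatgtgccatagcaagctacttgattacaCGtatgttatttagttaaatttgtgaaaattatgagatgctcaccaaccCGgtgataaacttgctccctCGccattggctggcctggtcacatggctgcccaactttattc
A promoter was found in this RefSeq table for 8 of the 9 members. The window of HOXD8 held 28 CpG, that of HOXD10 23, that of HOXD13 21, that of HOXD12 16 and that of HOXD4 4. The other members with a window had 31 (HOXD1), 23 (HOXD11) and 21 (HOXD3). The median over 27305 promoters of the same length was 11, and 7 of the 8 HOXD windows lay above it. The GC box GGGCGG, searched on both strands, was in 5 of the 8 windows and in 42.3% of all promoters. The letters TATAAA, also searched on both strands, were in 1 of the 8, that of HOXD13, where a match on each strand overlapped, and in 11.1% of all promoters. Methylation of these windows was not analysed here. The number of CpG did not order the members by level in DKO1, since HOXD1 had the highest number and was below 1 TPM.

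HOXD RNA was higher in DKO1 at HOXD13, HOXD10 and HOXD8, with low or overlapping values at the genes between and beside them. These 3 members reached 1 TPM in each DKO1 sample, and in WT only HOXD8 did so in each sample. For 7 of the 9 members every DKO1 value lay above every WT value, against 26% of the 29487 human genes with any value above 0. HOXD3 and HOXD4 overlapped between the genotypes, and for 0 members did every DKO1 value lie below every WT value, against 9.28% of the same genes.

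**Figure D1:**
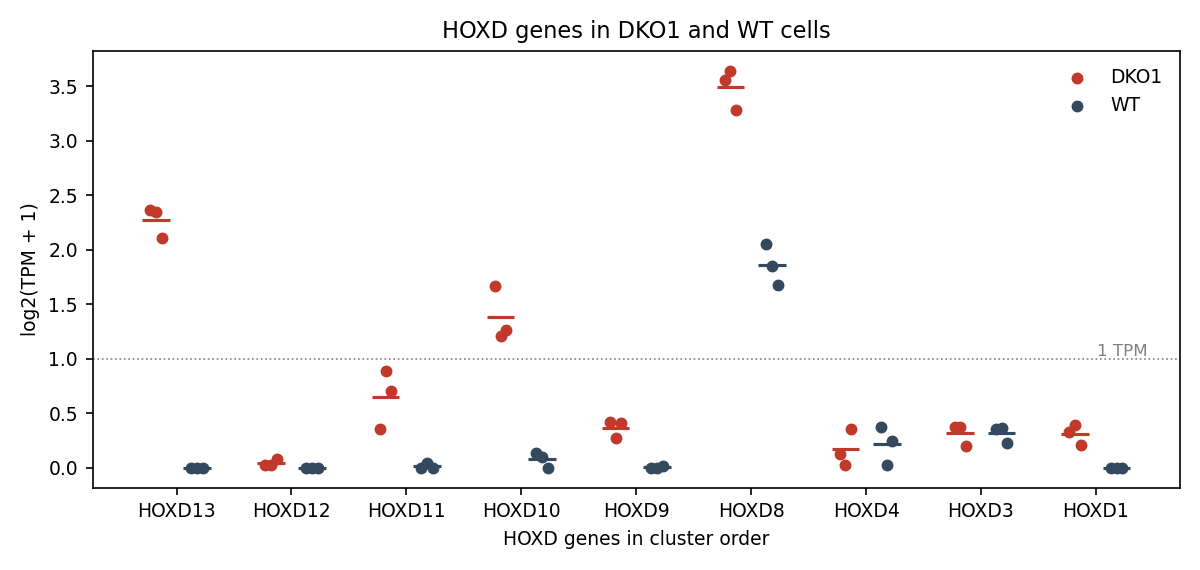
TPM of each HOXD gene on a log2(TPM + 1) axis, in cluster order from HOXD13 to HOXD1. Points are samples, bars are means of 3 samples, DKO1 is left of WT, and the dotted line marks 1 TPM. HOXD13, HOXD10 and HOXD8 lie above the line in DKO1, and only HOXD8 does in WT.

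HOXD13 (ENSG00000128714.5) is the 5′-most member, a factor of the digits, the external genitalia and the hindgut. It stood at 4.15, 4.1 and 3.3 TPM in DKO1 replicates 1, 2 and 3 and was listed at 0 in all 3 WT samples. The groups did not overlap, and no ratio is given against a listed 0. Its log2 fold change was 2.27 (SE 0.14, adjusted p = 3.03e-05, limma on log2(TPM + 1), adjusted over 13604 tested genes). At least 1 TPM in every DKO1 sample with a listed 0 in every WT sample was met by 160 tested genes (1.18%). Since the gene was at 0 in WT, the size of its fold change depends on the pseudocount, and with 0.1 in place of 1 it was 5.30.

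HOXD10 (ENSG00000128710.5), which in mouse patterns the hindlimb and its motor neurons, was at 2.17, 1.31 and 1.41 TPM in DKO1 and at 0.1, 0.07 and 0 TPM in WT. The lowest DKO1 value was above every WT value, and replicate 1 was the highest of the DKO1 samples. Its log2 fold change was 1.30 (SE 0.16, limma adjusted p = 0.000797). Under quantile normalization its log2 fold change was 0.60 and the call was lost (adjusted p = 0.0772, over a range of 0.000359 to 0.0772 among its 13 alternatives). With a pseudocount of 0.1 it was 3.49.

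HOXD8 (ENSG00000175879.7), from the middle of the cluster, was the member with the highest level in both genotypes. It was at 10.78, 11.5 and 8.72 TPM in DKO1 and at 3.16, 2.61 and 2.19 TPM in WT. The means were 10.3 ± 1.4 TPM in DKO1 and 2.65 ± 0.49 TPM in WT (SD, n = 3), 3.89-fold higher in DKO1 without overlap. The log2 fold change was 1.63 (SE 0.18, limma adjusted p = 0.000453) and lay between 1.36 and 1.93 under its 14 alternatives, in each of which it was called.

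A gene entered the test when 3 or more of the 6 samples reached 1 TPM, and 3 of the 9 members did. Of these 3 rose and 0 fell, while 18.8% of all tested genes were called higher and 9.6% lower. HOXD13 and HOXD10 entered only through their DKO1 values and so had to differ, and the count is therefore no support for a property of the cluster. HOXD8 passed in both genotypes. The 3 calls held without each of the 6 samples in turn, without the variance trend, under median-ratio scaling and after mitochondrial and spike-in TPM were removed before scaling.

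The other 6 members stayed at or below 0.85 TPM in every sample. HOXD11, a limb and kidney factor beside HOXD10, was at 0.28, 0.85 and 0.63 TPM in DKO1 and at 0, 0.03 and 0 TPM in WT. HOXD9 was at 0.34, 0.21 and 0.33 TPM in DKO1 and at 0, 0 and 0.01 TPM in WT. HOXD1, at the 3′ end, was at 0.26, 0.31 and 0.16 TPM in DKO1 and listed at 0 in each WT sample. These 3 were low in DKO1 and at or near 0 in WT, with no overlap between the groups.

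HOXD12 was at 0.02, 0.02 and 0.06 TPM in DKO1 and listed at 0 in each WT sample. These values are close to the rounding of the table, at 2 decimals. HOXD3 was at 0.3, 0.3 and 0.15 TPM in DKO1 and at 0.28, 0.29 and 0.17 TPM in WT. HOXD4 was at 0.09, 0.02 and 0.28 TPM in DKO1 and at 0.3, 0.02 and 0.19 TPM in WT. The ranges of HOXD3 and of HOXD4 overlapped between the genotypes, although both genes lie between members that were higher in DKO1. Without the filter, 6 of the 9 members were called higher and 0 lower by limma, where 14.9% of 29487 genes were called higher and 3.72% lower. The added calls were HOXD1 (log2 fold change 0.31, adjusted p = 0.00905), HOXD9 (0.36, adjusted p = 0.00466) and HOXD11 (0.64, adjusted p = 0.0226). HOXD12 (adjusted p = 0.251), HOXD3 (0.985) and HOXD4 (0.79) were not called. At such levels a fold change on the log2(TPM + 1) scale is drawn towards 0 by construction.

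The order of the levels differed between the genotypes. In DKO1 it ran from HOXD8 to HOXD13 and then HOXD10, with no overlap of ranges between neighbours in that order, and on through HOXD11, HOXD9, HOXD3, HOXD1, HOXD4 and HOXD12. From HOXD11 downward the ranges of neighbours overlapped, so those ranks are not distinguished by these samples. In WT HOXD8 stood above HOXD3 without overlap, and every further neighbour overlapped with the next. HOXD13, second in DKO1, shared the listed 0 of WT with HOXD12 and HOXD1.

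The summed TPM of the 9 genes was 18.4, 18.6 and 15 in DKO1 and 3.84, 3.02 and 2.56 in WT. The means were 17.3 ± 2 in DKO1 and 3.14 ± 0.65 in WT (SD, n = 3), with no overlap and no test, since the members were chosen with results known. HOXD8 took 58.6%, 61.8% and 58% of this sum in DKO1 and 82.3%, 86.4% and 85.5% in WT. HOXD13 took 22.6%, 22% and 21.9% in DKO1 and 0% in each WT sample. The HOXD13 share was thus alike among the DKO1 samples, although DKO1 replicate 3 had the lowest sum. HOXD made up 6.26%, 5.74% and 6.41% of the TPM of all 4 HOX clusters in DKO1 and 2.17%, 1.75% and 1.52% in WT. It had the lowest sum of the 4 clusters in each genotype. The HOXA sums averaged 90.1 ± 16 TPM in DKO1 and 128 ± 2.8 TPM in WT, and the HOXB sums 143 ± 29 TPM in DKO1 and 28.3 ± 2.8 TPM in WT (SD, n = 3). Those of HOXC averaged 33.6 ± 5.3 TPM in DKO1 and 12.9 ± 1.5 TPM in WT.

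**Figure D2:**
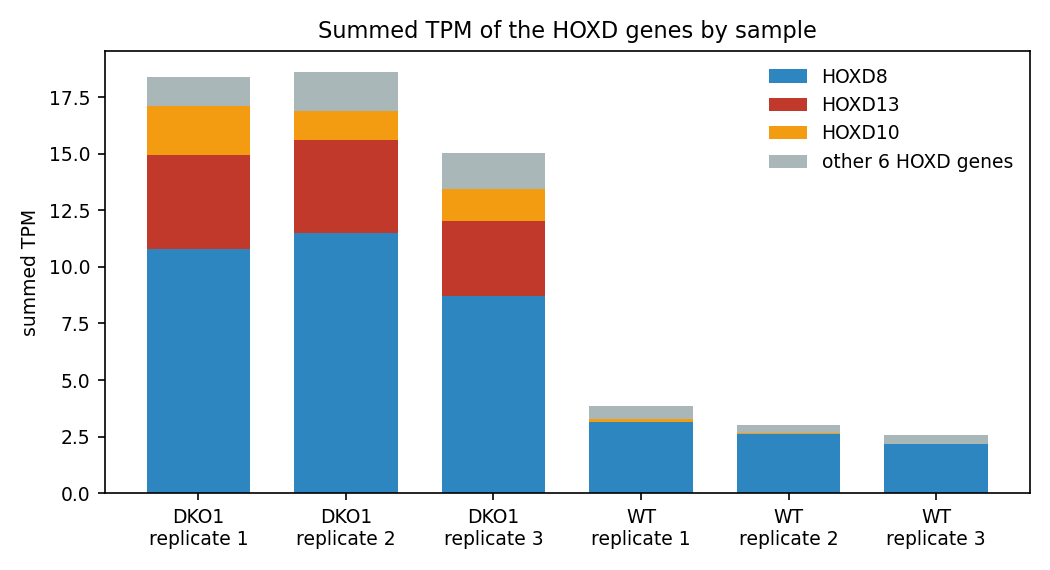
Summed TPM of the HOXD genes in each of the 6 samples, DKO1 at the left and WT at the right, as stacked bars on an axis from 0. The sums are 15 to 18.6 TPM in DKO1 and 2.56 to 3.84 TPM in WT, and HOXD13 is seen only in the DKO1 bars.

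HOX genes of the same number in different clusters are paralogues, copies that stem from the same ancestral gene and overlap in function. In group 13, which marks the posterior end of the body axis, HOXD13 had the highest mean of the 4 paralogues in DKO1 and was the one listed at 0 in WT. It took 37.3%, 39.7% and 36.5% of the TPM of the group in DKO1. HOXA13 took 8.27%, 17.2% and 11.3% of it in DKO1 and 74.4%, 77.9% and 77.8% in WT. HOXA13 was at 0.92, 1.78 and 1.02 TPM in DKO1 and at 5.39, 5.31 and 5.19 TPM in WT, and fell (log2 fold change −1.51, limma adjusted p = 0.000735). HOXC13 was at 3.65, 2.51 and 3.01 TPM in DKO1 and at 0.5, 0.49 and 0.4 TPM in WT, and rose (1.46, adjusted p = 0.00038). The DKO1 ranges of HOXD13 and HOXC13 overlapped. The sum of group 13 averaged 10.2 TPM in DKO1 and 6.91 TPM in WT.

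In group 8, HOXD8 and HOXB8 were both higher in DKO1. HOXB8 was at 7.76, 6.35 and 6.77 TPM in DKO1 and at 0, 0 and 0.41 TPM in WT (log2 fold change 2.82, limma adjusted p = 4.35e-05). HOXD8 held 56.6%, 61.9% and 53.7% of the TPM of group 8 in DKO1 and 88.5%, 85.9% and 73.7% in WT. In group 10, HOXD10 remained a small part, with 7.17%, 5.56% and 6.55% in DKO1 and 0.649%, 0.435% and 0% in WT. HOXC10 held 67.1%, 59.1% and 62% of group 10 in DKO1, and HOXA10 held 86.3%, 85.1% and 87.2% of it in WT. HOXC10 rose to 15.9 ± 3.9 TPM in DKO1, against 2.06 ± 0.25 TPM in WT (SD, n = 3, log2 fold change 2.44, limma adjusted p = 0.000108).

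**Figure D3:**
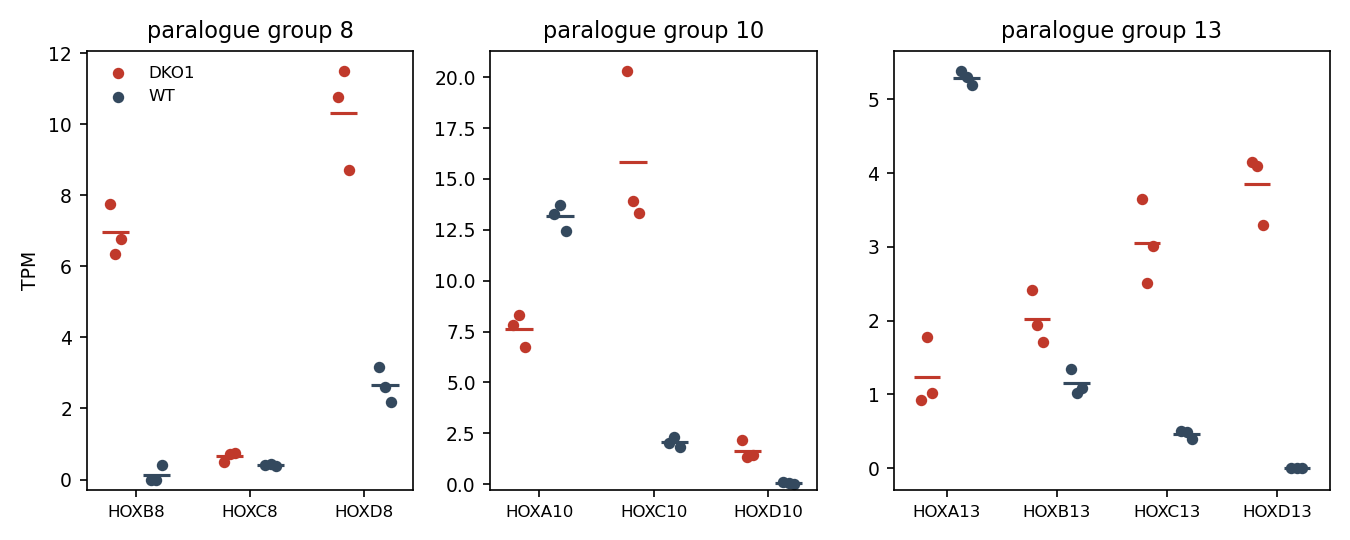
TPM of the genes of paralogue groups 8, 10 and 13 on linear axes, with points for samples, bars for means of 3 samples, and DKO1 left of WT. In group 13 HOXD13 lies at 3.3 to 4.15 TPM in DKO1 and at 0 in WT, while HOXA13 lies at 0.92 to 1.78 TPM in DKO1 and 5.19 to 5.39 TPM in WT.

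The difference between a HOXD gene and its paralogue was compared between genotypes as log2(TPM + 1) of the first minus that of the second, in 6 pairs of tested genes. HOXD13 minus HOXA13 was 1.13 ± 0.28 in DKO1 and −2.65 ± 0.02 in WT, a difference of 3.78 (SD, n = 3, exact permutation p = 0.1, two-sided, adjusted p = 0.1). For HOXD13 against HOXB13 and HOXC13 the differences were 1.79 and 0.81, and for HOXD10 against HOXA10 2.02 (exact p = 0.1 each). HOXD8 minus HOXB8 was 0.51 ± 0.23 in DKO1 and 1.70 ± 0.46 in WT, a difference of −1.19 (n = 3, exact p = 0.1). For HOXD10 against HOXC10 it was −1.14 and turned to 0.62 with a pseudocount of 0.1 (exact p = 0.1 in both). In all 6 pairs the 3 DKO1 values did not overlap the 3 WT values, and 0.1 is the smallest p that 3 against 3 samples can give, so this design cannot pass 0.05. HOXD13, HOXD10, HOXB8 and HOXC13 entered the test only through their DKO1 values, and every pair includes a gene among them. The filter thus favoured a gap between the genotypes, and the pairs share genes, so the lack of overlap is only a description. In the pair of HOXD13 and HOXC13 the filter acted on both genes. Among the tested genes of the other clusters, 1 of 9 HOXA genes rose and 5 fell, and 9 of 9 HOXB genes rose. Of 5 HOXC genes 3 rose and 0 fell (0 lower at an unadjusted limma p under 0.05). These counts stand beside 18.8% higher and 9.6% lower over all tested genes. HOXB2, HOXB4, HOXB5, HOXB8, HOXC4 and HOXC13 were below 1 TPM in every WT sample. They entered the test only through their DKO1 values and so had to differ. The HOXB and HOXC counts are therefore no support for a property of those clusters. The number of HOXA genes called lower was 2 to 6 when single samples were left out, and 2 without WT replicate 2. It was 3 without DKO1 replicate 1 or 3, without WT replicate 1 or 3 and with rescaling. HOXA11 (−0.85, 0.00638), HOXB2 (2.78, 7.22e-05), HOXB9 (2.75, 4.86e-05) and HOXC4 (1.21, 0.00415) were among the leading calls by log2 fold change and limma adjusted p. The HOXC4 call was lost under quantile normalization (0.25).

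Noncoding RNAs within the cluster were low in both genotypes, and of the 5 listed transcripts within or beside it 0 entered the test. HAGLR, a long noncoding RNA transcribed against the cluster between HOXD1 and HOXD3, was at 1.07, 1.7 and 0.23 TPM in DKO1 and listed at 0 in each WT sample. Its values did not overlap, but DKO1 replicate 3 was far below the other DKO1 samples, and without the filter it was not called (limma adjusted p = 0.0669). HOXD-AS2 was at 0.33, 0.19 and 0.59 TPM in DKO1 and at 0.32, 0.13 and 0.31 TPM in WT. HAGLROS was at 0.04, 0 and 0.11 TPM and EVX2, the homeobox gene just beyond HOXD13, at 0.02, 0.01 and 0 TPM in DKO1, and both were listed at 0 in WT. MIR10B was listed at 0 in all 6 samples, but libraries of this kind do not measure short RNAs.

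In GENCODE release 29 HOXD1 and HOXD3 overlap HAGLR on the opposite strand, and HOXD8, HOXD9 and HOXD3 overlap HOXD-AS2 on the opposite strand. HOXD10 and HOXD11 overlap on the same strand, as do HOXD3 and HOXD4, while HOXD13 and HOXD12 overlap no annotated gene. The sources used here do not give whether counting used the strand, and reads of overlapping genes cannot be told apart with certainty. Among the called members, HOXD13 has no such overlap, and HOXD8 overlaps only HOXD-AS2, listed at or below 0.59 TPM in every sample. That level comes from the same counting, so it sets no limit on the reads shared with HOXD8.

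The nearest tested protein-coding genes on each side of the cluster, LNPK and MTX2, were not called. EVX2, the protein-coding gene just beyond HOXD13, did not enter the test. LNPK, on the HOXD13 side, was at 17.28, 21.98 and 25.73 TPM in DKO1 and at 26.38, 31.81 and 26.08 TPM in WT (log2 fold change −0.37, SE 0.17, limma adjusted p = 0.153). MTX2, a mitochondrial outer membrane protein gene on the HOXD1 side, was at 84.54, 90.04 and 94.41 TPM in DKO1 and at 99.99, 109.21 and 99.2 TPM in WT (−0.20, SE 0.10, adjusted p = 0.203). For both genes every DKO1 value lay below every WT value, and neither was called in any of 14 alternatives. Farther out, 3 of the 10 nearest tested genes on the HOXD13 side and 3 of 10 on the HOXD1 side were called higher, with 0 and 1 lower. The shares over all tested genes were 18.8% higher and 9.6% lower, and an excess in this region was not tested. Among the higher calls, ENSG00000236449, WIPF1 and LINC01116 entered the test only through their DKO1 values and so had to differ. This window of 10 genes and its members were chosen after the values were seen.

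The long noncoding RNA LINC01116, the next tested gene beyond MTX2, was at 6.39, 8.07 and 6.77 TPM in DKO1 and at 0.22, 0 and 0 TPM in WT (log2 fold change 2.91, SE 0.16, adjusted p = 2.21e-05). WIPF1, an actin regulator on the HOXD13 side, was at 3.64, 4.2 and 2.61 TPM in DKO1 and at 0, 0.03 and 0 TPM in WT (2.13, SE 0.17, adjusted p = 9.61e-05). Both were close to 0 in WT. CHN1 rose on the same side (25.1 ± 5.1 TPM in DKO1 and 13.4 ± 0.52 TPM in WT, SD, n = 3, limma adjusted p = 0.00847), as did the antisense gene ENSG00000236449 (adjusted p = 0.000347). On the HOXD1 side TTC30A and TTC30B, near-identical genes that can share reads, had log2 fold changes of 0.93 (adjusted p = 0.00605) and 0.80 (0.00912). HNRNPA3 was the lower call (−0.55, adjusted p = 0.027). The HNRNPA3 call was lost without DKO1 replicate 1 (0.0822) or 2 (0.0555), without WT replicate 1, 2 or 3 (0.0885, 0.0936 and 0.0904) and without the filter (0.0506). TTC30B lost its call without WT replicate 3 (0.0506), and TTC30A, TTC30B and ENSG00000236449 lost theirs under quantile normalization (0.118, 0.195 and 0.0943). In the list of 20 protein-coding genes of this region, 17 were tested, of which 5 rose and 1 fell. Of all tested genes 18.8% rose and 9.6% fell. The list median log2 fold change was −0.06, against 0.07 over all tested genes. The fall was HNRNPA3, and leaving out DKO1 replicate 3 gave 3 lower genes, leaving out any other single sample gave 0, and there were 2 with the replicate number as a block. Median-ratio scaling gave 4 lower genes and the unfiltered fit 0, and quantile normalization gave 3 higher ones. Among the rises was DLX2, a homeobox gene farther out on the HOXD13 side (1.42, adjusted p = 0.00101). DLX2 and WIPF1 entered the test only through their DKO1 values, so the number of rises in this list is no support for a property of the region.

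**Figure D4:**
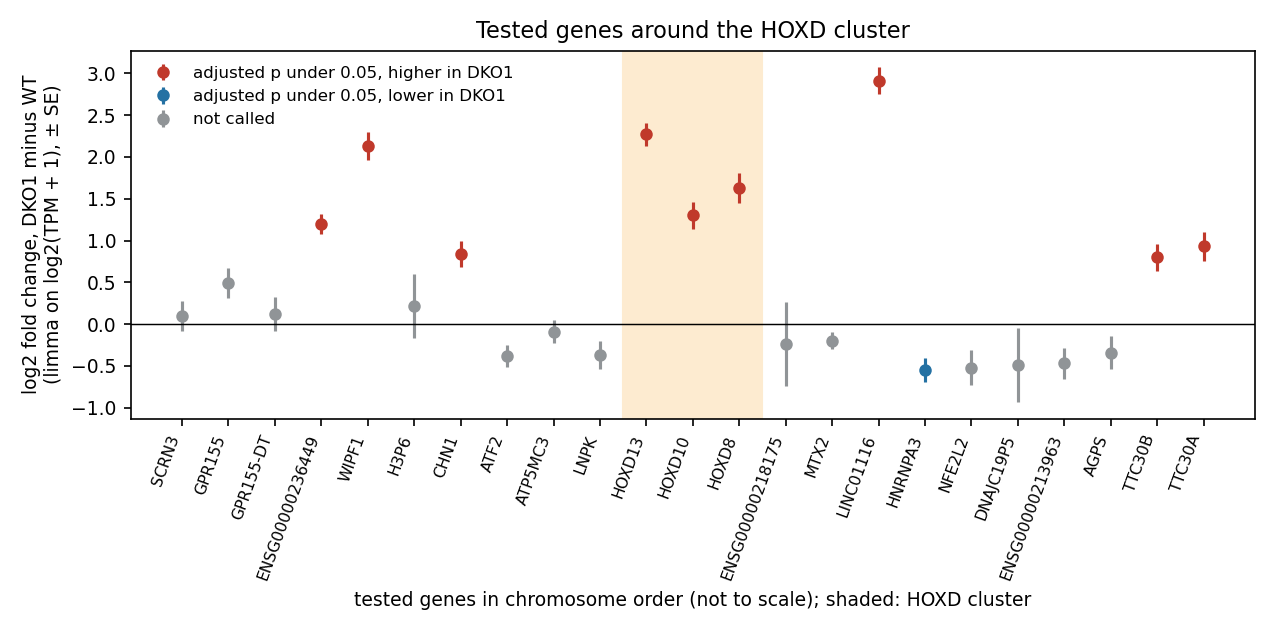
Log2 fold change with its SE (DKO1 minus WT, limma on log2(TPM + 1)) of the 3 tested HOXD genes and the 10 nearest tested genes on each side, in chromosome order and not to scale. LNPK (−0.37) and MTX2 (−0.20), next to the shaded cluster or near it, lie below 0, the HOXD genes lie at 1.30 to 2.27, and WIPF1 (2.13) and LINC01116 (2.91) stand high farther out.

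HOX proteins bind DNA together with TALE homeodomain cofactors of the PBX, MEIS and PKNOX families. The list of 11 TALE genes also held TGIF1 and TGIF2, which are outside these families. Of the 11 genes 8 were tested, of which 1 rose and 2 fell, with a median log2 fold change of 0.00. Across all tested genes 18.8% rose and 9.6% fell. TGIF1 (0.42, limma adjusted p = 0.055) and TGIF2 (−0.02, 0.947) were tested and not called. PBX3 rose, with 19.1, 21.62 and 16.63 TPM in DKO1 and 8.29, 8.05 and 7.45 TPM in WT (log2 fold change 1.17, SE 0.15, limma adjusted p = 0.00101). MEIS2 fell, with 4.47, 5.67 and 6.29 TPM in DKO1 and 10.23, 11.9 and 11.65 TPM in WT (−0.93, SE 0.17, adjusted p = 0.00546). PBX3 and MEIS2 moved in opposite directions, without overlap between the groups, and both calls held in all 14 alternatives. With the replicate number as a block 3 genes of the list were called higher, as in the unfiltered fit. The number was 2 without DKO1 replicate 2 or 3, under quantile normalization and with rescaling.

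Polycomb proteins keep HOX genes silent and Trithorax proteins keep them active. Of 19 tested Polycomb genes 2 rose and 3 fell, with a median log2 fold change of −0.15. Across all tested genes 18.8% rose and 9.6% fell. SUZ12, a core subunit of the complex that methylates histone H3 lysine 27, was at 53.8 ± 16 TPM in DKO1 and 98.7 ± 6.9 TPM in WT (SD, n = 3, log2 fold change −0.90, limma adjusted p = 0.0173). PHC1, of the complex that binds this mark, rose by 0.81 on the log2 scale (limma adjusted p = 0.013). The methyltransferase EZH2, named after its values were seen, was at 91.4 ± 14 TPM in DKO1 and 94.6 ± 4.2 TPM in WT (SD, n = 3, adjusted p = 0.781). The SUZ12 call was lost without WT replicate 1, 2 or 3 (0.0532, 0.0645 and 0.0603). That of PHC1 was lost without WT replicate 3 (0.0582). The number of lower Polycomb genes was 0 without any single WT sample, 1 without DKO1 replicate 1, 5 without DKO1 replicate 3 and 5 with the replicate block. Median-ratio scaling gave 7, quantile normalization 6 and the unfiltered fit 1. The number of higher ones was 4 without DKO1 replicate 2, 1 without DKO1 replicate 1 or WT replicate 1 or under quantile normalization, and 0 without WT replicate 3. Of 11 tested Trithorax genes 0 rose and 1 fell, PSIP1, which tethers the MLL complex to chromatin, at 129 ± 21 TPM in DKO1 and 225 ± 11 TPM in WT (SD, n = 3, −0.81, adjusted p = 0.00487), with a list median of −0.05. At an unadjusted limma p under 0.05, 0 Trithorax genes were higher and 2 lower.

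Retinoic acid, CDX factors and GDF11 switch on HOX genes in the embryo. Of 10 tested genes of these inputs 3 rose and 1 fell, with a median log2 fold change of 0.26. Across all tested genes 18.8% rose and 9.6% fell. ALDH1A2, which makes retinoic acid, was at 2.95, 1.73 and 2.95 TPM in DKO1 and at 0.04, 0.32 and 0.01 TPM in WT (1.65, SE 0.20, limma adjusted p = 0.000759). CYP26A1, which breaks it down and is itself a retinoic acid target, was at 3.93 ± 0.38 TPM in DKO1 and 1.78 ± 0.44 TPM in WT (SD, n = 3, 0.84, adjusted p = 0.0107), a call lost under quantile normalization (0.115). CDX2, the intestinal homeobox factor, was at 0.71, 0.52 and 0.7 TPM in DKO1 and at 1.38, 1.22 and 1.32 TPM in WT (−0.49, adjusted p = 0.026). The CDX2 call was lost without WT replicate 1, 2 or 3 (0.0953, 0.0789 and 0.102). ALDH1A2 entered the test only through its DKO1 values and so had to differ. The number of higher genes in this list was 2 under quantile normalization, median-ratio scaling, a pseudocount of 0.1 and the replicate block. It was also 2 without DKO1 replicate 2 or any single WT sample, and 4 with rescaling. Of 15 noncoding transcripts of the other HOX clusters 3 were tested, of which 1 rose and 0 fell (1 lower at an unadjusted limma p under 0.05, and by adjusted p 2 lower under quantile normalization and 1 under median-ratio scaling, with the replicate block or without DKO1 replicate 1), with a median of −0.38. The one that rose was HOTAIRM1 of the HOXA cluster, at 26.2 ± 6.2 TPM in DKO1 and 9.42 ± 2.2 TPM in WT (SD, n = 3, 1.39, adjusted p = 0.00367). HOTAIR, a noncoding RNA of the HOXC cluster described in human fibroblasts as acting on HOXD, was below the filter, at 0.37, 0.36 and 0.33 TPM in DKO1 and at 0.04, 0.02 and 0 TPM in WT. Its groups did not overlap, and without the filter HOTAIR was called higher (log2 fold change 0.41, limma adjusted p = 0.00145). In that fit 5 of 13 such transcripts were called higher and 0 lower, against 14.9% and 3.72% of 29487 genes.

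Outside the HOX clusters, the 5 tested genes with the profile nearest to that of HOXD8 were H2BC5, CDH1, IL17RD, ACOT8 and CFAP91, by Euclidean distance over the 6 samples on the log2(TPM + 1) scale. The distances were 0.34, 0.40, 0.47, 0.49 and 0.53. H2BC5, a histone gene, was at 10, 13.73 and 8.77 TPM in DKO1 and at 2.88, 2.26 and 1.92 TPM in WT. CDH1, the epithelial cadherin, was at 9.56, 9.78 and 10.11 TPM in DKO1 and at 3.54, 2.75 and 2.63 TPM in WT. These genes lie on chromosomes 6, 16, 3, 20 and 3. They were selected by level and by genotype difference at the same time, so their likeness is a description.

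The labels were checked against the targeted genes and against cell type markers. DNMT1 was at 36.2 ± 9.2 TPM in DKO1 and 242 ± 9.8 TPM in WT, and DNMT3B at 4.42 ± 0.75 TPM in DKO1 and 7.36 ± 0.76 TPM in WT (SD, n = 3, limma adjusted p = 3.59e-05 and 0.03). With rescaling the DNMT3B call was lost (0.0645). It was also lost when DKO1 replicate 1 (0.0535) or WT replicate 1 (0.11), 2 (0.0908) or 3 (0.0778) was left out. Of 8 epithelial and colorectal markers 6 reached 1 TPM throughout DKO1 and 7 throughout WT, with EPCAM at 455 ± 73 TPM in DKO1 and 488 ± 42 TPM in WT (SD, n = 3). The 8 summed to 710 to 959 TPM in DKO1 and 955 to 1197 TPM in WT. The intestinal marker VIL1 was at or below 0.43 TPM in every sample. Markers of blood cells summed to 3.43 to 3.72 TPM in DKO1 and 0.24 to 0.35 TPM in WT over 6 genes. LYZ was the 1 blood marker to reach 1 TPM throughout DKO1, PTPRC was listed at 0 in WT and HBB in all samples. Those of fibroblasts summed to 3.19 to 3.61 TPM in DKO1 and 1.18 to 1.84 TPM in WT over 7 genes, endothelial ones to 0.46 to 0.83 TPM in DKO1 and 0.06 to 0.39 TPM in WT over 3, and neural ones to 5.43 to 10.4 TPM in DKO1 and 3.32 to 5.89 TPM in WT over 4. Mitochondrially encoded transcripts took 21.2% to 27.7% of the TPM in DKO1 and 19.7% to 20.1% in WT. The blood, fibroblast and endothelial sums and the mitochondrial share were higher in DKO1 without overlap, as HOXD RNA was, and their part in the result was not tested, except that the 3 HOXD calls held with the mitochondrial rows left out. In bulk RNA, more cells with a transcript and more transcript per cell cannot be told apart.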

How the data were processed

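RNA was measured in 3 DKO1 and 3 WT samples. The deposited values are TPM per gene, rounded by the authors to 2 decimals. The submitters' processing notes name STAR 2.5.3a, RSEM 1.2.21, Trim Galore 0.4.0, edgeR 3.12.1 and FastQC, and the builds hg19 and GRCh37, with no role or order. The annotation release is not given in the sources used here. TPM is relative, so a gain elsewhere lowers a gene. The table held 57897 rows, of which 77 were no human gene and stayed out of the test. GENCODE 29 and a gene name table supplied symbols (for 52338 human rows) and gene order.

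On log2(TPM + 1), limma 3.58.1 (R 4.3.3) was fitted with genotype alone and a trended variance to the 13604 genes that reached 1 TPM in 3 or more samples, with Benjamini-Hochberg adjustment over all of them. A call is an adjusted p under 0.05, and fold changes on this scale understate those of low genes. The fit was tested on simulated data. Differences between paralogues used exact permutation over samples. No ratio is given where a group mean was below 0.5 TPM.

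The members and the gene lists were chosen with earlier results of these data known. Named are all members, the targeted genes, MTX2 and LNPK, the transcripts within or beside the cluster, up to 3 called genes per other list, and the 5 profiles nearest to the highest member, with exceptions stated. Some genes that this rule names are not reported here. Same-numbered samples deviated together (correlations of 0.35, 0.572 and 0.267 over tested genes for replicates 1, 2 and 3). For samples of unlike number the correlations were −0.383 to 0.128. Deviations were taken from the mean of each genotype, so these correlations depend on each other. The numbers may pair the samples, which rests on the data alone, since the labels give no shared batch. The main fit and the permutation tests treated the samples as unpaired. The alternatives tried were leaving out each sample, the replicate number as a block, quantile normalization, median-ratio scaling, removal of mitochondrial and spike-in TPM before scaling, a fixed variance, a pseudocount of 0.1, a mean of 5 TPM or more, and all genes unfiltered. Those for the paralogue differences were chosen after seeing the data.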

Additional observations from a re-analysis of the deposited data

How the results depend on the processing

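The number of HOXD genes called higher was 3. It was 6 without the filter on low values, which tested all 9 members, and 1 with a mean of at least 5 TPM, which tested only HOXD8. It was 2 under quantile normalization, where HOXD10 was not called, and 3 under the other alternatives, each left-out sample included. In each of them 0 members were called lower. With the replicate number as a block it was 3 (adjusted p = 0.00014 for HOXD13, 0.00138 for HOXD10 and 0.000491 for HOXD8, limma), and the block changed no HOXD call. The difference in summed HOXD TPM, DKO1 minus WT, was 14.2, and 19.9 after mitochondrial and spike-in TPM were removed before scaling, which raises all other TPM. It was 13.6 to 15.4 when single samples were left out. The difference of HOXD10 against HOXC10 was −1.14 and reversed to 0.62 with a pseudocount of 0.1 (exact permutation p = 0.1), which gives more weight to the low HOXD10 values. The log2 fold changes ran from 1.74 to 5.30 for HOXD13, from 0.60 to 3.49 for HOXD10 and from 1.36 to 1.93 for HOXD8. Over all genes, 2558 were called higher and 1306 lower, and across alternatives 1145 to 4400 higher and 524 to 2094 lower. Over the tested genes the median moved by −0.13 on the log2 scale with median-ratio scaling, −0.14 with quantile normalization and 0.10 with rescaling, and HOXD13 and HOXD8 were called higher under each, while HOXD10 lost its call under quantile normalization (log2 fold change 0.60, adjusted p = 0.0772). Depth is unknown, so the members below 1 TPM carry no stated precision.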
